A study of Mus musculus with 12 samples.

Results

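The gene for the transcription factor p53 (Trp53) and 9 genes that it is known to activate (Mdm2, Cdkn1a, Ccng1, Trp53inp1, Phlda3, Zmat3, Eda2r, Sesn2 and Aen) were followed in B cells of the Peyer's patches (PP) after experimental stroke. These 10 genes were picked by name as known members of the p53 pathway, with earlier results of these data known, and all of them were found among the 36175 genes of the deposited expression table. RNA-seq was performed on PP B cells of 6 sham controls and 6 stroke mice. All mice were male wild-type C57BL/6JHsd mice of 10 to 12 weeks, and none carried a transgene. Stroke was induced by occluding the middle cerebral artery for 1 h with a filament that was then withdrawn, the sham controls went through surgery without a lasting occlusion, and B cells were purified 18 h after surgery by magnetic depletion of other cells followed by enrichment for CD45. Stroke in this model is brought about by surgery, and the cells analysed were those that remained in the PP at that time, so cells lost earlier are not in the data. In such bulk samples, fewer cells of a type and less RNA per cell cannot be told apart.

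p53 is held at a low level in unstressed cells because MDM2, an E3 ubiquitin ligase, marks it for degradation. DNA damage and other stresses stabilise the p53 protein, which then binds DNA and activates genes that halt the cell cycle, repair DNA or start apoptosis, and MDM2 itself is among these genes and so forms a negative feedback loop. Because much of this control acts on the protein, the mRNA level of Trp53 does not give the activity of p53, and lymphocytes are known to be among the cells that readily die when p53 is activated.

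p53 binds as a tetramer to pairs of a short palindromic DNA element, the p53 half-site, and this element was searched for in the promoters of the genes because they are grouped as p53 targets. Promoter sequences from 250 bases before to 50 bases after each RefSeq start (GRCm38.p6) were on hand for 8 of the 10 genes. A half-site was found in 5 of these 8 genes (62.5%, Trp53 itself among them), in 10 of 55 genes of the wider p53 pathway (18.2%) and in 9.55% of all 27025 genes with a promoter sequence. Because the genes were picked as known members of the pathway, a higher share among them is not a result of these data. The element reads the same on both strands, so a single search covered both. The matches are shown in a window of 30 bases on the strand of the gene, with the half-site in capitals.
Trp53: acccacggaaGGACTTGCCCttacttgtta
Mdm2: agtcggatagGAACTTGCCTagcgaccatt
Cdkn1a, first match: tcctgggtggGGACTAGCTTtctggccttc
Cdkn1a, second match: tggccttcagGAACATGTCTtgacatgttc
Ccng1: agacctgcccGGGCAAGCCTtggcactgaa
Aen: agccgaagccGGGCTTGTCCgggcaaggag

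The half-sites lie at chr11:69580284-69580293 (Trp53, plus strand), chr10:117710935-117710944 (Mdm2, minus strand), chr17:29090906-29090915 and chr17:29090928-29090937 (Cdkn1a, plus strand), chr11:40755462-40755471 (Ccng1, minus strand) and chr7:78895937-78895946 (Aen, plus strand). The 2 matches of Cdkn1a sit in the window of its upstream start and the window of its downstream start held none. The windows of Phlda3, Sesn2 and Eda2r held no match, which says only that these letters are not in those windows. A match is a description of the sequence and was not tested for binding by p53.

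The B cell identity of the samples was checked first. All 9 B cell markers reached 1 or more in all 12 mice, and their summed signal ranged from 2929 to 3853 in the sham controls and from 1795 to 3425 in the stroke mice, with an exact permutation p of 0.126. The 1795 belongs to stroke mouse 5, beside 2976 for the next stroke mouse, and the B cell markers Cr2 and Fcer2a were at 47.1 and 48.6 in it, beside 169 to 213 and 177 to 234 in the other stroke mice and 212 to 294 and 199 to 318 in the sham controls. Transcripts of other cells were present as well. The 9 markers of intestinal epithelial cells, none of which was at 0 in any mouse, summed to between 36.0 and 1718 in the sham controls and to between 32.7 and 854 in the stroke mice (exact two-sided permutation test, p = 0.223), and the 7 plasma cell markers summed to between 242 and 1254 and between 288 and 915, respectively. The columns of the table sum to between 559570 and 1404340, and the sequencing depth is unknown. The lowest sum, 559570 beside 804983 for the next mouse, and the lowest plasma cell signal, 242, both belong to sham control 6. Sham control 6 and stroke mouse 5 stand apart in several of the results, and the part of these differences in them was not tested.

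No difference between stroke mice and sham controls was called for any of the 10 genes. 7 of them reached 1 in all mice and were tested by limma together with all other genes that did so, while Sesn2, Phlda3 and Eda2r did not reach that level. Of these 7, 0 were called higher and 0 lower at an unadjusted p under 0.05, beside 4.42% of all 12590 genes tested that were higher and 1.69% that were lower in stroke mice, or 6.12% in either direction. Over all genes this was 557 higher and 213 lower, a split that became 407 and 316 with median-of-ratios scaling, 378 and 327 with quantile normalization and 348 and 70 with columns rescaled to the same total. Exact permutation tests of the 10 genes, run as a second tool, gave no p under 0.203. After Benjamini-Hochberg adjustment, 0 of the 7 and 0 of the 12590 genes passed. In 0 of the 10 genes were the values of stroke mice entirely above or below those of sham controls, which was the case for 0.437% of all genes tested (0.349% with stroke mice above and 0.0874% with stroke mice below). The median log2 fold change of the 7 genes was -0.03, with 3 positive and 4 negative values, and that of all genes tested was 0.01. The plot of values by mouse shows the overlap of the groups gene by gene.

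**Figure D1:**
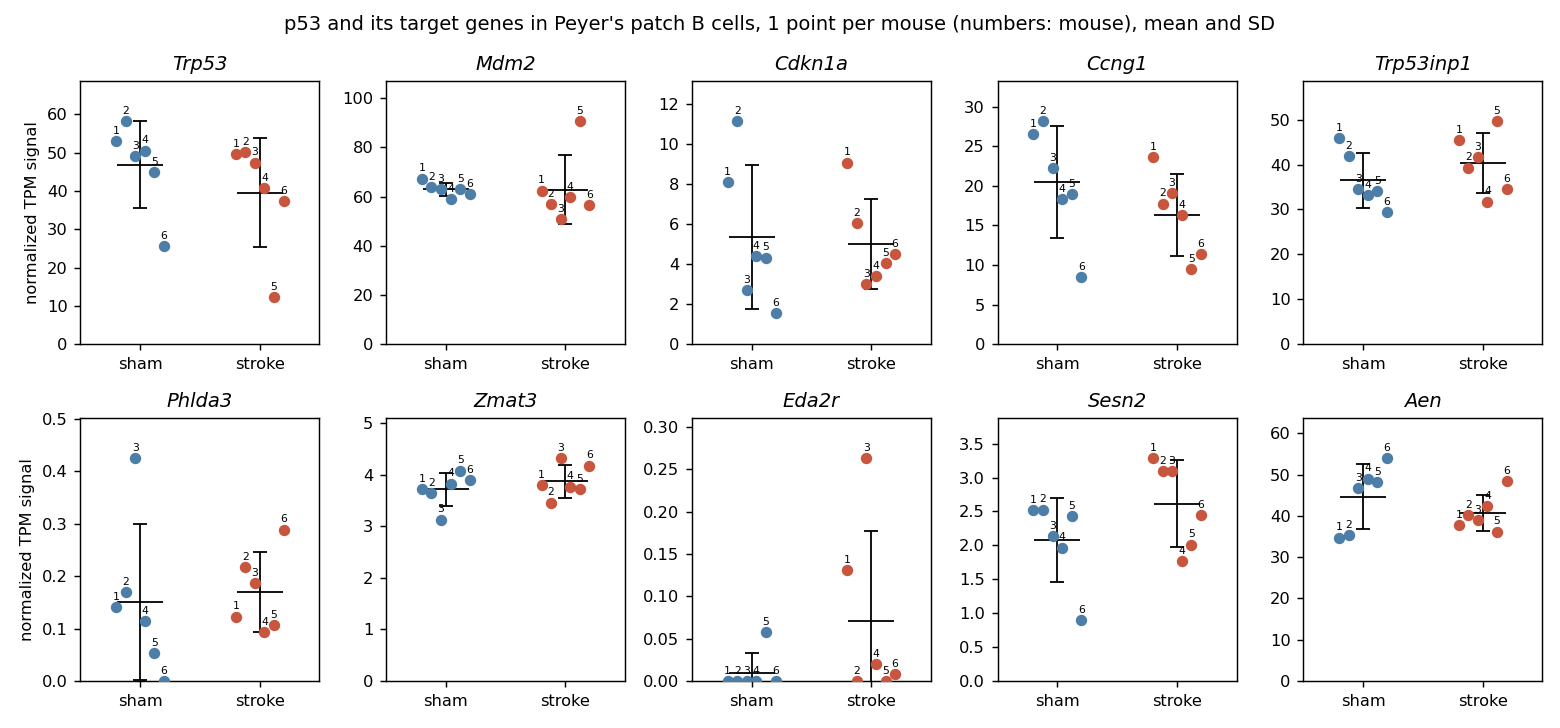
Normalized TPM signal (vertical axes, each starting at 0) of the 10 genes in PP B cells of 6 sham controls (blue) and 6 stroke mice (red). Each point is 1 mouse with its number, the horizontal line is the group mean and the bars are the SD. The groups overlap for all 10 genes, and sham control 6 and stroke mouse 5 stand apart in Trp53, at 25.6 and 12.3.

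Trp53 (chr11:69580359-69591873, plus strand, GRCm38), which encodes p53 itself, was well expressed. Its signal in the sham controls ranged from 25.6 to 58.2 with a median of 49.8, and in the stroke mice from 12.3 to 50.2 with a median of 44.1. 5 of 6 mice of either group lay between 37.3 and 58.2, and the low values came from sham control 6 and stroke mouse 5. Group means were 46.9 ± 11.3 (SD) for the sham controls and 39.6 ± 14.3 (SD) for the stroke mice, with 6 mice each. The log2 fold change of stroke over sham was -0.33 (SE 0.32, limma adjusted p = 0.858), and it was -0.02 without stroke mouse 5, -0.49 without sham control 6 and -0.08 with the summed epithelial markers as a covariate.

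Mdm2 (chr10:117688875-117710758, minus strand), the ligase that holds p53 down and is itself a p53 target, had the highest level of the 10 genes. The sham controls were closely spaced, from 59.0 to 67.3 with a median of 63.1. The stroke mice ranged from 50.8 to 90.6 with a median of 58.2, and the highest value belonged to stroke mouse 5, the mouse with the lowest Trp53. Means were 62.9 ± 2.79 and 62.8 ± 14.2 (SD, n = 6 each). Stroke over sham gave a log2 fold change of -0.03 (SE 0.13, limma adjusted p = 0.971), and its 95% interval covers folds from 0.806 to 1.20. Without stroke mouse 3 the log2 fold change was 0.03, so that no direction can be given.

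Ccng1 (chr11:40748552-40755311, minus strand) encodes cyclin G1, which acts back on MDM2 through a phosphatase. Its signal ranged from 8.44 to 28.2 in the sham controls with a median of 20.6, and from 9.53 to 23.6 in the stroke mice with a median of 17.0. 5 of 6 stroke mice lay below the sham mean of 20.4 ± 7.07 (SD), yet the lowest value of all was that of sham control 6. Its log2 fold change was -0.29 (SE 0.28, limma adjusted p = 0.858). When sham control 6 was left out, the log2 fold change was -0.52 and passed the unadjusted threshold (limma adjusted p = 0.284). It was -0.15 without stroke mouse 5 and -0.02 with the epithelial markers as a covariate.

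Cdkn1a (chr17:29090976-29100727, plus strand) encodes p21, the inhibitor of cyclin-dependent kinases through which p53 arrests the cell cycle. It was low and uneven, ranging from 1.54 to 11.1 in the sham controls with a median of 4.36 and from 2.99 to 9.07 in the stroke mice with a median of 4.27. Both extremes were sham controls, so the range of the stroke mice lay inside that of the sham controls. Its log2 fold change was 0.06 (SE 0.38, limma adjusted p = 0.979), its 95% interval covers folds from 0.586 to 1.84, and it turned negative, at -0.20, without sham control 6. Cdkn1a followed the epithelial markers between mice, as given with the variation between mice, and with their summed level as a covariate the log2 fold change was 0.56, past the unadjusted threshold (limma adjusted p = 0.862). The part of epithelial RNA in the level of Cdkn1a was not tested further. A transcript of uncertain status in the annotation, AC167363.2, overlaps Cdkn1a on the opposite strand, and whether the quantification used strand is not given in the sources used here.

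Trp53inp1 and Aen, both known as promoters of cell death, were expressed at a level near that of Trp53. Trp53inp1 (chr4:11156431-11174379, plus strand), a nuclear protein that promotes apoptosis and autophagy, ranged from 29.4 to 45.8 in the sham controls with a median of 34.3, and from 31.7 to 49.6 in the stroke mice with a median of 40.5. 4 of 6 stroke mice lay above the sham mean of 36.5 ± 6.11 (SD), and the log2 fold change was 0.15 (SE 0.14, limma adjusted p = 0.859).

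Aen (chr7:78895854-78911209, plus strand), a nuclease that cuts DNA in apoptotic cells, ranged from 34.7 to 54.0 in the sham controls with a median of 47.5, and from 36.2 to 48.5 in the stroke mice with a median of 39.6. 5 of 6 stroke mice lay below the sham mean of 44.7 ± 7.90 (SD), while sham controls 1 and 2 were the lowest of all. For Aen the log2 fold change was -0.12 (SE 0.13, limma adjusted p = 0.870). Both genes thus had fold changes of opposite sign, neither beyond the spread between mice.

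Zmat3 and Sesn2 were expressed at a few units. Zmat3 (chr3:32334792-32366014, minus strand), an RNA-binding protein, was the steadiest of the 7 genes tested by the ratio of its highest to its lowest mouse (1.38), with values from 3.13 to 4.08 in the sham controls and from 3.46 to 4.33 in the stroke mice, and with medians of 3.77 and 3.78. Stroke over sham gave a log2 fold change of 0.05 (SE 0.099, limma adjusted p = 0.917), and its interval covers folds from 0.896 to 1.20.

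Sesn2 (chr4:132492032-132510501, minus strand) encodes sestrin 2, which restrains mTORC1 and oxidative stress. It ranged from 0.901 to 2.53 in the sham controls with a median of 2.28, and from 1.77 to 3.29 in the stroke mice with a median of 2.77. 3 stroke mice (1, 2 and 3) lay above every sham control and 3 lay among them. Because sham control 6 was under 1, the gene was not among those tested by limma. Its difference in mean log2 value was 0.29 (exact two-sided permutation test, p = 0.203), with values from 0.13 without sham control 6 to 0.41 (exact permutation p = 0.013) with columns rescaled to the same total. A further annotated transcript, Gm12981, overlaps Sesn2 and is placed on the same strand, although its annotated type is antisense.

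Phlda3 and Eda2r were hardly detected. Phlda3 (chr1:135766119-135769136, plus strand), an inhibitor of AKT, lay between 0.00 and 0.426 in the sham controls and between 0.0928 and 0.289 in the stroke mice (difference in mean log2 value 0.06, exact two-sided permutation test, p = 0.682). Eda2r (chrX:97333840-97377216, minus strand), a receptor of the TNF receptor family, was listed at 0 in 7 of 12 mice, reached 0.0575 in sham control 5, and reached 0.263 in stroke mouse 3 and 0.131 in stroke mouse 1 (difference 0.14, exact two-sided permutation test, p = 0.227). Both genes lay under the pseudocount of 0.5, where a fold change cannot be read.

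**Figure D2:**
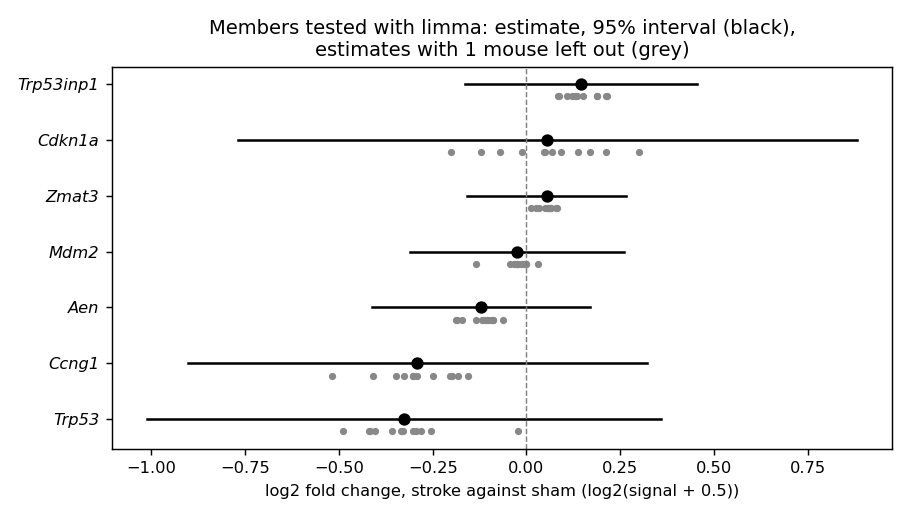
Log2 fold change of stroke mice over sham controls on the log2(signal + 0.5) scale (horizontal axis) for the 7 genes tested by limma (vertical axis). Black points with lines are estimates with 95% intervals and grey points are estimates with 1 mouse left out in turn. All intervals include 0, and the estimate for Trp53 moves from -0.33 to -0.02 when stroke mouse 5 is left out.

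The authors label the values as normalized TPM, a unit per transcript length, and on the assumption that they keep this scaling the levels of the genes were ordered. By the mean of log2(signal + 0.5) over the 12 mice, the order was Mdm2, Aen, Trp53, Trp53inp1, Ccng1, Cdkn1a, Zmat3, Sesn2, Phlda3 and Eda2r. Of the 9 neighbouring pairs, 6 differed by an exact two-sided sign-flip test within mice with Benjamini-Hochberg adjustment over the 9 pairs. These include Sesn2 over Phlda3 and Phlda3 over Eda2r, and since Phlda3 and Eda2r lie under the pseudocount, the size of these 2 steps cannot be read. Mdm2 lay above Aen in 12 of 12 mice, with a log2 difference of 0.55 (exact sign-flip test, p = 0.000488, the smallest this test can give). Aen and Trp53 (difference 0.06, exact adjusted p = 0.771), Trp53 and Trp53inp1 (0.09, exact adjusted p = 0.771) and Cdkn1a and Zmat3 (0.25, exact adjusted p = 0.346) did not differ beyond their spread. Among the 8 genes with a mean signal above 1, the steepest step, a log2 difference of 1.80, lay between Ccng1 and Cdkn1a.

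The level of each target relative to Trp53 was then compared within mice, since a scaling shared by all genes of a mouse largely cancels in it where both genes lie well above the pseudocount. It does so only in part for Sesn2, and for Phlda3 and Eda2r, which lie below the pseudocount, the difference mostly restates Trp53. After adjustment over the 9 targets, 0 differed between the groups. Sesn2 came closest. Its log2 level lay below that of Trp53 throughout, with a difference of -4.20 ± 0.141 (SD) over the 6 sham controls and of -3.58 ± 0.629 (SD) over the 6 stroke mice, a change of 0.62 (exact two-sided permutation test, p = 0.00649, adjusted p = 0.0584). Stroke mouse 4, at -4.18, was the only stroke mouse within the sham range of -4.37 to -3.96. Without it the change was 0.74 (adjusted exact permutation p = 0.0195). The groups then no longer overlap, so this small p follows from the choice of the mouse left out and no conclusion is drawn from it. Stroke mouse 5, with its low Trp53, had the highest value, -2.35, and without it the change was 0.37 (adjusted exact permutation p = 0.136). For Mdm2 the change relative to Trp53 was 0.30 (exact adjusted p = 0.731) and for Cdkn1a it was 0.38 (exact adjusted p = 0.588), and without stroke mouse 5 these were -0.11 and 0.12.

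The relations of the genes between mice were mixed in sign, and several of them depended on single mice. After the group means were removed, the 21 pairs of the 7 genes that passed had a median Pearson correlation of -0.132 over 12 mice and a median absolute correlation of 0.39, beside 0.0248 and 0.331 for all pairs of the 12590 genes tested. 2 of the 45 pairs of all 10 genes passed a permutation test within groups after adjustment over the 45 pairs. In the values as deposited, Trp53 and Ccng1 varied together, with r = 0.814 (adjusted permutation p = 0.0045) and Spearman's rho = 0.804 (adjusted permutation p = 0.0214), and r was 0.854 without the 2 mice farthest from the median of Trp53, sham control 6 and stroke mouse 5. Trp53inp1 and Aen varied in opposite directions in the values as deposited, with r = -0.886 (adjusted permutation p = 0.00652) and rho = -0.888 (adjusted permutation p = 0.0139), and r was -0.861 without the same 2 mice (adjusted permutation p = 0.0582). Both relations passed with any 1 mouse left out, at an adjusted permutation p of at most 0.0162 and 0.0328, but they depended on the scaling. Median-of-ratios scaling left r at 0.799 for Trp53 and Ccng1 (adjusted permutation p = 0.0108) and at -0.816 for Trp53inp1 and Aen (adjusted permutation p = 0.0009). With columns rescaled to the same total, r was 0.712 for Trp53 and Ccng1 (adjusted permutation p = 0.0847) and turned to 0.622 for Trp53inp1 and Aen (adjusted permutation p = 0.197), and 2 other pairs passed instead, Zmat3 with Aen (r = 0.946, adjusted permutation p = 0.0238) and Mdm2 with Trp53inp1 (r = 0.904, adjusted permutation p = 0.0319). By rho alone, in the values as deposited, Sesn2 also passed with Ccng1 (rho = 0.860, adjusted permutation p = 0.0214) and with Cdkn1a (rho = 0.804, adjusted permutation p = 0.0355).

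**Figure D3:**
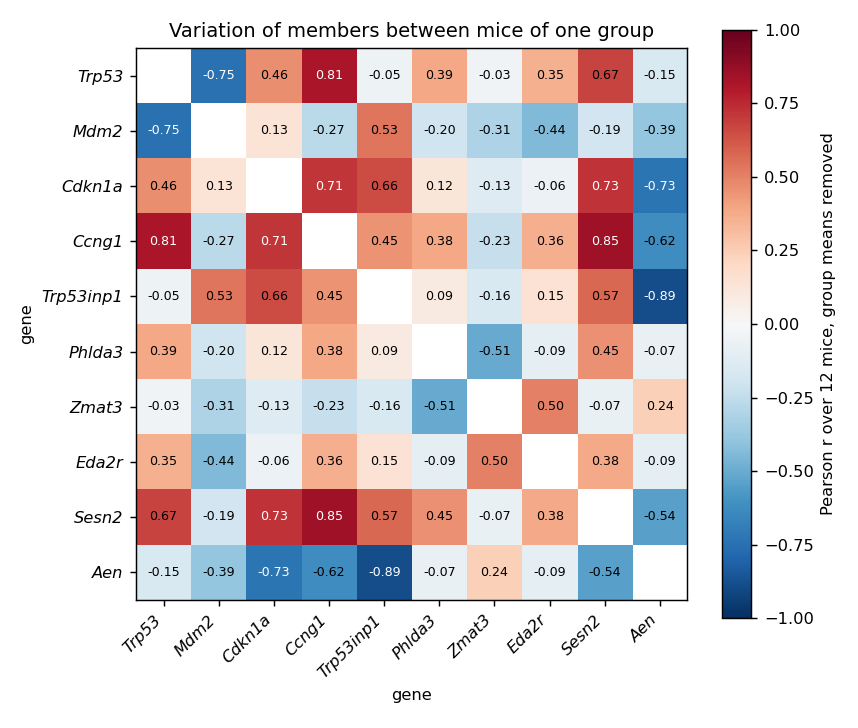
Pearson correlation (colour and number) of each pair of the 10 genes over 12 mice, computed on log2(signal + 0.5) after the mean of each group was removed; both axes list the genes. Blue and red cells are mixed, with Trp53 and Ccng1 at 0.81 and Trp53inp1 and Aen at -0.89, a value that turns to 0.62 when columns are rescaled to the same total.

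The feedback pair Trp53 and Mdm2 had r = -0.746, but rho = -0.224 and an adjusted permutation p of 0.343. It was 0.183 without stroke mouse 5 and -0.878 without sham control 6, so this relation rests on stroke mouse 5, and it was 0.0689 without both. The same mouse also weighed on the other relations. Without it, the median correlation of the 21 pairs was 0.183, with 11 pairs positive, and 10 of the 45 pairs passed. Among these, Trp53 was positively related to Cdkn1a (r = 0.753), Ccng1 (r = 0.947), Trp53inp1 (r = 0.734) and Sesn2 (r = 0.891) and negatively to Aen (r = -0.745), each at an adjusted permutation p of 0.0449 or less. Without stroke mouse 3 or stroke mouse 4, 4 pairs passed. Trp53 and Cdkn1a had r = 0.465 (rho = 0.545, adjusted permutation p = 0.289 for r).

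Markers of other cells moved with several of the genes. 40 such relations, those of the 10 genes with the summed markers of epithelial cells, germinal centre B cells, plasma cells and T cells, were computed over 12 mice with group means removed and adjusted together. Cdkn1a followed the epithelial markers, with r = 0.927 (adjusted permutation p = 0.001), rho = 0.902 (adjusted permutation p = 0.0024) and r = 0.903 without the 2 mice farthest from the median. Sesn2 did so with r = 0.806 (adjusted permutation p = 0.038) and rho = 0.867, while r was 0.568 without sham control 6 and stroke mouse 4. With columns rescaled to the same total, r was 0.893 for Cdkn1a (adjusted permutation p = 0.006) and 0.456 for Sesn2 (adjusted permutation p = 0.301). In sham controls 1 and 2, with epithelial sums of 1718 and 1619, Cdkn1a was at 8.08 and 11.1, and in sham control 6, with a sum of 36.0, it was at 1.54.

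The summed plasma cell markers moved with 4 of the genes in the values as deposited. Jchain was the largest part of this sum in each mouse (969 of 1254 in sham control 1). The sum was lowest in sham control 6, and Jchain, Xbp1 and Sdc1 were lowest of the sham controls there. Derl3 was highest of the sham controls in that mouse, at 29.9, and Irf4, Prdm1 and Tnfrsf17 lay in between. The correlation with the sum was 0.841 for Trp53 (rho = 0.818, adjusted permutation p = 0.001 for r), 0.946 for Ccng1 (rho = 0.867, adjusted permutation p = 0.00227), 0.902 for Sesn2 (rho = 0.895, adjusted permutation p = 0.0186) and 0.766 for Cdkn1a (rho = 0.755, adjusted permutation p = 0.0489). Without sham control 6 and stroke mouse 5 these were 0.870, 0.802, 0.734 and 0.734, while r went from 0.461 to 0.944 for Trp53inp1 and from -0.568 to -0.831 for Aen. With columns rescaled to the same total, the correlation with plasma cell markers passed for Ccng1 (r = 0.806, adjusted permutation p = 0.0472) and did not for Trp53 (r = 0.672), Sesn2 (r = 0.597) or Cdkn1a (r = 0.467). Median-of-ratios scaling also ended the calls of Sesn2 with epithelial markers (r = 0.763) and of Cdkn1a with plasma cell markers (r = 0.741), both at an adjusted permutation p of 0.0722. With the same total, Zmat3 passed with germinal centre markers (r = 0.804, adjusted permutation p = 0.0428), epithelial markers (r = -0.671, adjusted permutation p = 0.05 after rounding) and plasma cell markers (r = -0.662, adjusted permutation p = 0.0472). Of the 10 relations with germinal centre markers and the 10 with T cell markers, 0 passed after adjustment in the values as deposited. The unadjusted permutation p was 0.0247 for Zmat3 with germinal centre markers. With T cell markers it was 0.0192 for Trp53, 0.0221 for Cdkn1a, 0.0242 for Sesn2 and 0.0321 for Ccng1. The part of these cells in the levels of the genes was not tested.

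**Figure D4:**
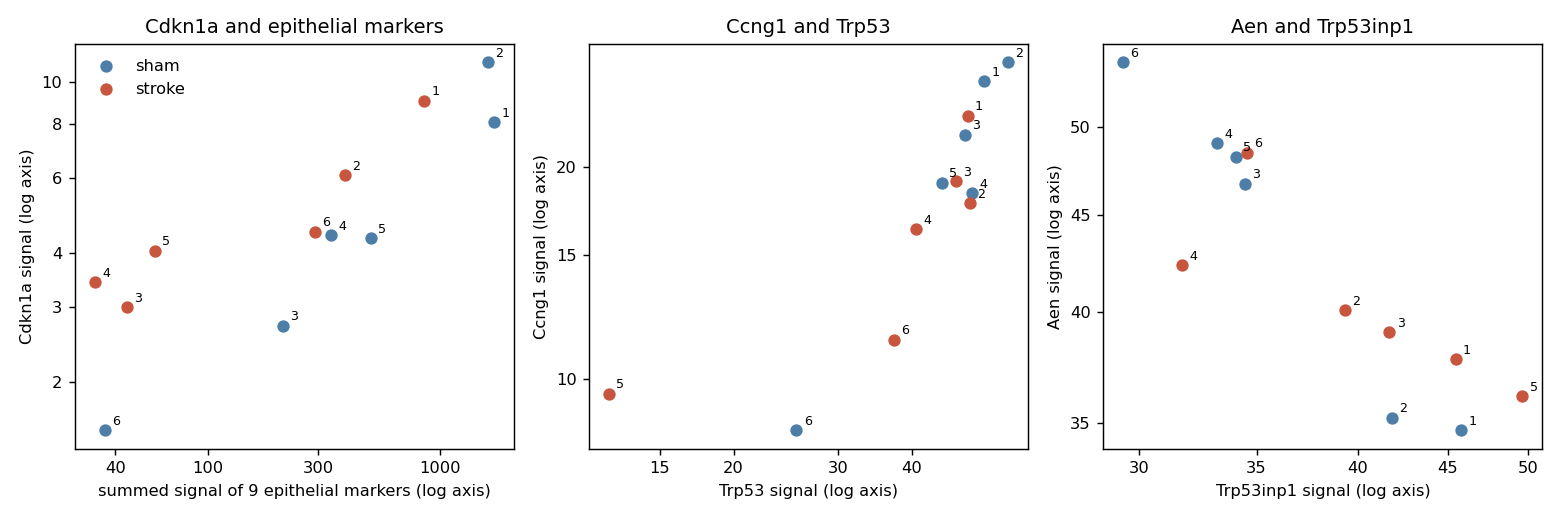
Signal per mouse on log axes in sham controls (blue) and stroke mice (red), numbered by mouse: Cdkn1a against the summed signal of 9 epithelial markers (left), Ccng1 against Trp53 (middle) and Aen against Trp53inp1 (right). Cdkn1a is at 1.54 in sham control 6, where the epithelial sum is 36.0, and at 11.1 in sham control 2, where it is 1619.

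For Trp53, Mdm2 and Cdkn1a, the genes with the most similar pattern over the 12 mice were looked up among 12589 others, as a description. Trp53 was most like Dynll1 (r = 0.986), Uso1 (r = 0.984) and Emc10 (r = 0.982). Mdm2 was most like Tsga10 (r = 0.952), Slc4a7 (r = 0.925) and Elp2 (r = 0.905), and Cdkn1a was most like Ndufv3 (r = 0.948), Lgals3 (r = 0.946) and Mxd1 (r = 0.944). None of these 9 genes was among the 10 genes studied.

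The wider p53 pathway was taken from 5 lists of 66 genes in all, of which 54 passed the filter. 3 of the 54 were called higher and 0 lower in stroke mice at an unadjusted p under 0.05, beside the 4.42% and 1.69% of all genes, and 0 passed after adjustment. The median log2 fold change was 0.01, with 28 positive and 26 negative values, and the groups overlapped in all 54 genes. The 3 genes were Sesn1, Bbc3 and Ddit4.

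Bbc3 encodes PUMA, a BH3-only protein that starts mitochondrial apoptosis. It ranged from 1.93 to 5.48 in the sham controls with a median of 3.01 and from 5.01 to 9.19 in the stroke mice with a median of 6.26, and the groups overlapped only through sham control 3. Its log2 fold change was 0.99 (SE 0.21, limma adjusted p = 0.50, exact permutation p = 0.00649), and it passed the unadjusted threshold in each of the 23 alternative settings. These settings reuse the same mice and are not independent tests, and Bbc3 had the smallest p of the apoptosis list.

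Sesn1 encodes sestrin 1, a relative of Sesn2. It ranged from 24.9 to 48.6 in the sham controls with a median of 33.9 and from 40.02 to 263 in the stroke mice with a median of 82.9, with 5 of 6 stroke mice above every sham control. For Sesn1 the log2 fold change was 1.28 (SE 0.36, limma adjusted p = 0.716, exact permutation p = 0.00649), and it was 0.96 without stroke mouse 5, the mouse at 263. Ddit4, an mTORC1 inhibitor that is named because it was called and was chosen after its values were seen, had a log2 fold change of 0.81 (SE 0.36, limma adjusted p = 0.791, exact permutation p = 0.0671) and values from 6.66 to 33.0 in sham controls and from 23.3 to 45.8 in stroke mice. Its call held in 13 of 23 alternative settings. The call was lost with a filter on the mean, no filter, sample weights, or sham control 6 and stroke mouse 5 both left out. It was also lost without any one of sham controls 5 and 6 and stroke mice 1, 3, 4 and 5. The log2 fold change of Ddit4 was 0.52 without sham control 6.

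The other named genes of the pathway did not pass. Among the 20 tested regulators of p53 and genes of DNA damage signalling, 0 were called and the median log2 fold change was -0.00041. Mdm4, the inhibitory partner of MDM2, had a log2 fold change of 0.19 (SE 0.15), Ppm1d, the phosphatase that switches p53 signalling off, had -0.04 (SE 0.11), and Atm, the kinase that senses DNA breaks, had -0.13 (SE 0.14). The extremes of this list by p were Chek1, a checkpoint kinase, at 0.57 (SE 0.29, limma adjusted p = 0.791) and Trp53bp1 at -0.23 (SE 0.15, limma adjusted p = 0.794). Chek1 was at 24.96 in stroke mouse 5, without which its log2 fold change was 0.30, and it passed the unadjusted threshold in 3 of 23 alternative settings.

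Of the 11 tested targets that act on the cell cycle and growth, 2 were called higher (Sesn1 and Ddit4) and the median log2 fold change was 0.10. The growth arrest genes Btg2 and Gadd45a had log2 fold changes of -0.11 (SE 0.22) and 0.20 (SE 0.24), and the phosphatase gene Ptp4a3 had -0.23 (SE 0.18). Of the 10 tested apoptosis targets, 1 was called higher (Bbc3) and the median was 0.03. The pore-forming effector Bax, the BH3-only gene Pmaip1 and the death receptor gene Fas had log2 fold changes of 0.08 (SE 0.11), 0.25 (SE 0.26) and -0.03 (SE 0.24), and Siva1 had -0.14 (SE 0.27). Perp, which was at 0 in 1 mouse, was not tested by limma. Its difference in mean log2 value was -1.29 (exact two-sided permutation test, p = 0.186).

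Of the 7 tested DNA repair targets and the 6 tested metabolic targets, 0 were called, with median log2 fold changes of 0.07 and -0.11. The damage sensor Xpc had a log2 fold change of 0.23 (SE 0.14) and the replication clamp Pcna had -0.15 (SE 0.21). The metabolic genes Tigar, Lpin1 and Pank1 had log2 fold changes of -0.15 (SE 0.19), 0.26 (SE 0.29) and -0.10 (SE 0.12). The plot of the lists shows the spread of the 54 genes around that of the 7.

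**Figure D5:**
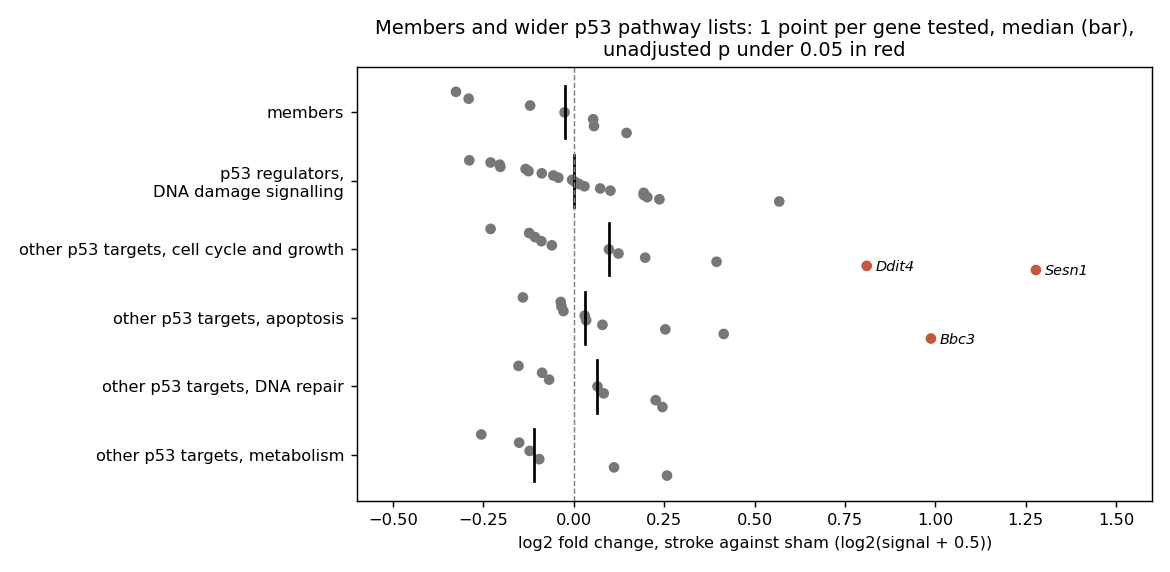
Log2 fold change of stroke mice over sham controls on the log2(signal + 0.5) scale (horizontal axis) for the 7 tested genes of the p53 group (members) and the 54 tested genes of the 5 wider lists (vertical axis). Each point is a gene, red where the unadjusted limma p is under 0.05, and the bar is the median of the list. Only Sesn1, Bbc3 and Ddit4 are red, at 1.28, 0.99 and 0.81.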

How the data were processed

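PP B cells of 12 mice were purified magnetically and sequenced by the authors as bulk RNA. Reads were trimmed with Trimmomatic 0.39, quantified with kallisto 0.48.0 against Ensembl release 102 (GRCm38) and analysed with sleuth 0.30.0 in R 4.1.2. The deposited table holds a signal for each gene that the authors label as normalized TPM. Plain TPM had been assumed in planning the tests, but the columns do not share a sum. The values were therefore handled as a signal, on log2(value + 0.5), where folds of low genes are understated. No read counts were used, so depth is unknown and no interval covers counting error.

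The 12590 genes at or above 1 in all mice entered limma 3.58.1 (R 4.3.3), without a block, and p-values were adjusted by Benjamini-Hochberg over all of them. For single values, exact two-sided permutation tests ran over 924 assignments of the mice (smallest p 0.00216), and correlations used 100000 permutations within groups (scipy 1.17.1). The scripts were tested on simulated data.

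The 10 genes, the 5 pathway lists and the 10 marker lists were chosen with earlier results of these data known. Named were all 10 genes, a fixed set of pathway genes, the gene with the smallest p per direction in each list and any whose groups do not overlap, and the 3 genes most like Trp53, Mdm2 and Cdkn1a. Coordinates are from GENCODE M21. Groups and replicate numbers come from the sample labels. That each sample is a separate mouse is taken from the study, and p-values measure the spread between these samples. Alternatives were other pseudocounts, filters, scalings, sample weights, a block and each mouse left out. Added after seeing the data were leaving out sham control 6 and stroke mouse 5 together, the epithelial markers as a covariate, the relations to marker lists, and other scalings of these relations and of the levels relative to Trp53.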

Additional observations from a re-analysis of the deposited data

Results flagged for a closer look

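In 58 groups of 6 mice tested, 10 held a mouse farther from the others than Dixon's 95% critical value allows, where chance gives about 1 in 20. This is 17.2% of the groups, beside 9.75% of the 25180 groups of all genes tested. The sets are not alike, since the 58 groups include genes that did not reach 1 in all mice, among them Sesn2 and Eda2r, and genes named for their p. Over all genes, 40.8% of such values were those of stroke mouse 5 and 29.3% those of sham control 6. 5 of the 10 concerned sham control 6, the mouse with the lowest column total (559570, beside 804983 for the next). Its signal was 25.6 for Trp53, 8.44 for Ccng1, 0.901 for Sesn2, 8.15 for Gadd45a and 13.2 for Siva1, the lowest of the sham controls in each. 3 concerned stroke mouse 5, which was lowest in its group for Trp53, at 12.3, and highest for Mdm2, at 90.6, and for Chek1, at 24.96. Eda2r was at 0.0575 in sham control 5 and at 0 in the other sham controls, so that any value above 0 would have been flagged. Mdm4 was at 183 in stroke mouse 1, the lowest of the stroke mice.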

How the results depend on the processing

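The limits of these results are the unknown depth, the 6 mice per group and the spread between mice. By limma, 0 of the 7 genes tested passed after adjustment under the alternatives run, and neither did Sesn2, Phlda3 or Eda2r where a looser filter or none let them in. At an unadjusted p, 1 gene was higher with the epithelial markers as a covariate (Cdkn1a), and between 0 and 1 were lower with a mouse left out (1, Ccng1, without sham control 6). Targets past the threshold relative to Trp53 numbered between 0 and 1 with a mouse left out. The 1 was Sesn2 without stroke mouse 4, the only stroke mouse within its sham range. Related pairs numbered between 2 and 10 with a mouse left out, and 4 when sham control 6 and stroke mouse 5 were both left out. With columns rescaled to the same total 2 pairs passed, but neither was among the 2 of the deposited values. Wider pathway genes called lower numbered 1 with sample weights (Ptp4a3) and between 0 and 2 with a mouse left out (2, Nbn and Ptp4a3, without sham control 6). Of the named pathway genes beyond Sesn1, Bbc3 and Ddit4, Chek1 was called higher under 3 settings (the block, sample weights and without sham control 5), Pmaip1 with the epithelial covariate and Xpc without stroke mouse 3. The causes were not tested.

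The same replicate numbers occur in both groups, but same-numbered mice correlated between 0.0134 and 0.494 in their deviations from the group means, with a mean of 0.218 beside -0.0414 for other pairs, and 4 of 12 mice correlated best with their own number. Because 2 of the 6 values were not above 0.1, the numbers were not taken as pairs. With the replicate number as a block, 0 of the 7 genes tested were called in either direction, Sesn2 relative to Trp53 was higher in 6 of 6 pairs (exact sign-flip p = 0.0312, the smallest that 6 pairs can give, so that a single target could not pass over the 9), and 770 genes were higher and 404 lower among all genes tested, beside 557 and 213 without it. These counts over all genes were 937 and 1158 without sham control 6, 817 and 813 without sham control 6 and stroke mouse 5, 866 and 703 with sample weights, 348 and 70 with columns rescaled to the same total, 407 and 316 with median-of-ratios scaling, 378 and 327 with quantile normalization, 1418 and 350 with no filter, 468 and 123 with the epithelial covariate, and 670 and 250 with a filter on the mean. Adjusted calls over all genes numbered 0, and 1 with the filter on the mean or without sham control 1.

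Directions turned as follows, with no value past the threshold. Rescaling to the same total moved the median log2 fold change of all genes to 0.127 and gave 0.10 for Mdm2, 0.0031 for Aen, 0.019 for Btg2, 0.088 for Fas, 0.011 for Pank1 and 0.080 for Ppm1d, all below that median. Quantile normalization gave -0.017 for Zmat3. Sample weights gave 0.12 for Fas and -0.14 for Gadd45a. The epithelial covariate gave 0.095 for Btg2, 0.031 for Ppm1d and 0.013 for Siva1. Leaving out sham control 6 and stroke mouse 5 gave -0.16 for Cdkn1a, 0.059 for Fas and -0.14 for Gadd45a. With 1 mouse left out, the value ranged from -0.14 to 0.030 for Mdm2, from -0.20 to 0.30 for Cdkn1a, from -0.26 to 0.00072 for Btg2, from -0.15 to 0.13 for Fas and from -0.0092 to 0.17 for Phlda3. Relative to Trp53, leaving out stroke mouse 5 turned the change of Mdm2 to -0.11, of Ccng1 to -0.13 and of Aen to -0.066, and that of Ccng1 was also negative without sham control 4 or 6.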
